A study of Mus musculus with 24 samples.

Results

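The interaction of cisplatin and AU-15330 was measured gene by gene in ID8 Trp53−/− mouse ovarian cancer cells, as the effect of AU-15330 in cells that also received cisplatin minus its effect in cells that did not, on the log2 scale. No measured value chose the members: every gene that passed a filter on low counts was tested, 12941 of the 25229 genes in the table. An interaction of 0 means that the fold changes caused by the 2 drugs multiply. A negative interaction means that the combination lay below that product, and a positive interaction that it lay above it. Genes with an interaction were then sorted into 9 classes by how each drug acted alone.

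ID8 is a line of mouse ovarian surface epithelial cells, and all 4 groups, the controls included, carried the disruption of Trp53. The groups were DMSO vehicle, 750 nM cisplatin, 2.5 uM AU-15330, and both drugs at these concentrations, each for 6 days and each with 6 libraries. The study's methods give another cisplatin concentration for these cells, and the concentration in the labels is used here. The Trp53 transcript was detected in every group, at 29.3 ± 3.91 CPM (SD, n = 6) in DMSO, 39.8 ± 2.76 CPM with cisplatin, 20.5 ± 1.22 CPM with AU-15330 and 30.2 ± 3.18 CPM with both, and without a line of intact Trp53 these levels do not check the genotype. The labels do not say whether the 6 libraries of a group came from separate cultures, so p-values measure the spread between these libraries.

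Cisplatin forms adducts and crosslinks on DNA that block replication and set off damage signalling. SWI/SNF complexes move and evict nucleosomes with the energy of an ATPase, SMARCA4 or SMARCA2, and so open enhancers and promoters to transcription factors. AU-15330 is a proteolysis-targeting chimera (PROTAC), a molecule that brings both ATPases to a ubiquitin ligase for degradation. A drug pair can therefore act on the same transcript by different routes, and the 2 × 2 layout separates the response to the pair from the responses to each drug.

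Levels are given in CPM, the reads counted on a gene scaled to the library's reads over all tested genes, with TMM adjustment, and they are compared between groups and not between genes. The libraries held between 17592588 and 25260009 counted reads, and 3 counts, taken as the floor of detection, covered counting error only. Markers of ovarian surface epithelium and mesothelium were present, 8 of 9 reaching 1 CPM in a library, with summed levels of 3531 to 5346 CPM in DMSO, 4263 to 4948 CPM with cisplatin, 1019 to 1152 CPM with AU-15330 and 1224 to 1406 CPM with both. Of 7 leukocyte markers only Cd68 reached 1 CPM, and Ptprc, which defines leukocytes, stayed at or below 0.309 CPM. The summed level of the 7 was 6.51 to 19.1 CPM in DMSO, 7.16 to 13.7 CPM with cisplatin, 17.2 to 53.5 CPM with AU-15330 and 24.4 to 42.5 CPM with both. Of 4 endothelial markers only Pecam1 reached it, with summed levels of 2.87 to 4.28 CPM in DMSO, 8.51 to 12.8 CPM with cisplatin, 0.261 to 0.763 CPM with AU-15330 and 0.483 to 1.2 CPM with both. Of 4 fibroblast markers Dcn, Pdgfra and Lum reached it, with summed levels of 19.2 to 41.8 CPM, 146 to 224 CPM, 44.9 to 70.01 CPM and 48.4 to 81.3 CPM in the same order, and the part of these markers in the interaction was not tested. AU-15330 acts on proteins, so transcript levels do not check that treatment. Replicate 1 of DMSO stood apart for ATF4 targets, the unfolded protein response, oxidative phosphorylation and DNA replication, and values are given there without it. For oxidative phosphorylation and DNA replication, replicate 1 lay highest in all 4 groups.

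In total, 4361 genes had a called interaction (33.7% of those tested) in edgeR's quasi-likelihood test across all 24 libraries (p under 0.05 after Benjamini-Hochberg adjustment over all tested genes). In a bulk library, fewer cells of a kind and less RNA per cell cannot be told apart. The interaction was positive for 2313 genes (17.9% of those tested) and negative for 2048 (15.8%). This split moved with the scaling: with library totals in place of TMM factors, 41.7% of 4297 calls were positive against 53.04% with TMM. Large interactions were more often negative, with 873 negative and 464 positive genes among the 1337 called at 2-fold or more. In 131 of these 1337 genes a group had at most 3 counts in every library, and the fitted value there is no bound. The sign was the same in all 6 sets of libraries sharing a replicate number for 3464 of the 4361 genes. With a fold threshold of 1.5 added to the test, 926 of the 12941 genes were called, 21.2% of the 4361 calls. Of these 926, 36.9% were positive.

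Each drug changed fewer genes, and by less, in the presence of the other. Cisplatin alone changed 6689 genes (51.7%), of which 1731 by 2-fold or more, 1441 up and 290 down. In cells that also received AU-15330, cisplatin changed 5394 genes (41.7%), of which 992 by 2-fold or more, 851 up and 141 down. AU-15330 changed 9497 genes alone (73.4%) and 8813 with cisplatin (68.1%), of which 3815 and 3069, respectively, by 2-fold or more. The size of effect that 90% of genes did not exceed was 1.33 for cisplatin alone and 0.95 with AU-15330, and 2.63 for AU-15330 alone and 2.18 with cisplatin, on the log2 scale.

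The effects of cisplatin in the 2 settings were less alike than those of AU-15330. Across the 12941 genes the log2 effects of cisplatin alone and with AU-15330, which share no library, had a Pearson correlation of 0.415 (Spearman 0.361), given as a description. For AU-15330 alone and with cisplatin the correlation was 0.861 (Spearman 0.809). Cisplatin changed 2593 genes in the same direction in both settings and 597 in opposite directions, 253 of them up alone and 344 down alone. AU-15330 changed 6929 genes in the same direction and 364 in opposite directions. Among the 4361 genes with an interaction, the combination lay nearer to AU-15330 alone than to cisplatin alone for 2862 (65.6%), close to the 68.4% of all tested genes.

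**Figure D1:**
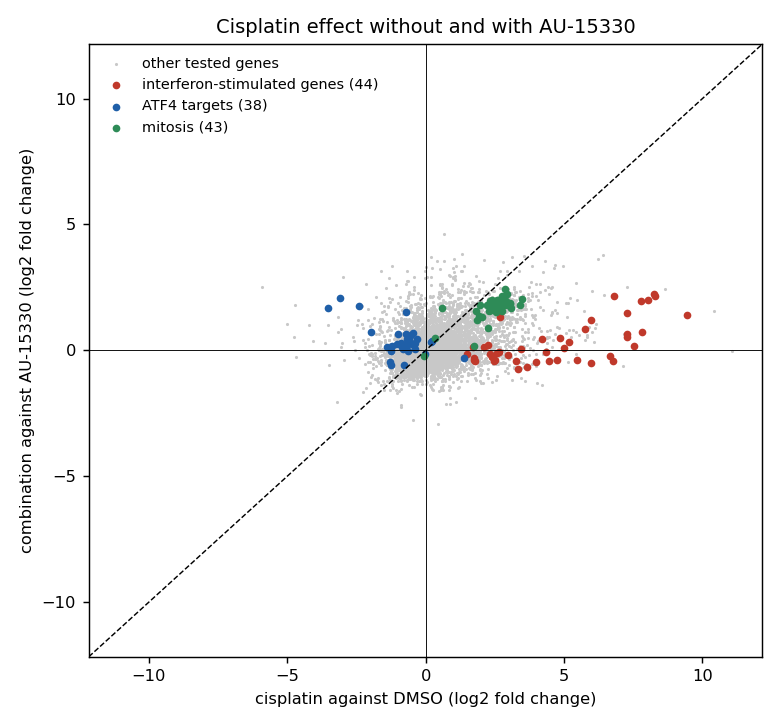
Log2 fold change caused by cisplatin alone (x axis, cisplatin against DMSO) and in cells that also received AU-15330 (y axis, combination against AU-15330), each point being a gene, with the dashed line marking equal effects. Genes with a positive interaction lie above the line and genes with a negative interaction below it, and over all genes the 2 effects had a Pearson correlation of 0.415.

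Most interactions were smaller combined responses than the single drugs predict. This held for 3444 of the 4361 genes (79.0%), the combined response was larger than predicted for 187 (4.29%), and 730 (16.7%) fell in neither kind. DMSO libraries enter both single-drug effects and, with the opposite sign, the interaction, so noise in them favours the first kind. With each drug's effect averaged over the absence and presence of the other, which does not share noise with the interaction in this way, the shares were 52.7%, 15.4% and 31.9%. The commonest class by either definition was a response shared by both drugs and less than additive, with 2095 genes by single-drug effects and 1058 by averaged effects.

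Of the 2095 shared responses that were less than additive, 1020 were up-regulated by each drug alone and 1075 down-regulated. The up-regulated genes had a median log2 fold change against DMSO of 1.28 with cisplatin, 1.51 with AU-15330 and 1.81 with both, with a median interaction of −1.12. For 200 of the 1020 (19.6%) the combination was called different from neither drug alone, and for 119 (11.7%) it lay beyond both. For a further 284 (27.8%) it lay beyond cisplatin and was not called different from AU-15330. The down-regulated genes had medians of −0.54, −0.77 and −0.70, with a median interaction of 0.64, and for 28 of 1075 (2.60%) the combination lay below both drugs. Being called different from neither drug does not show that levels were equal.

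**Figure D2:**
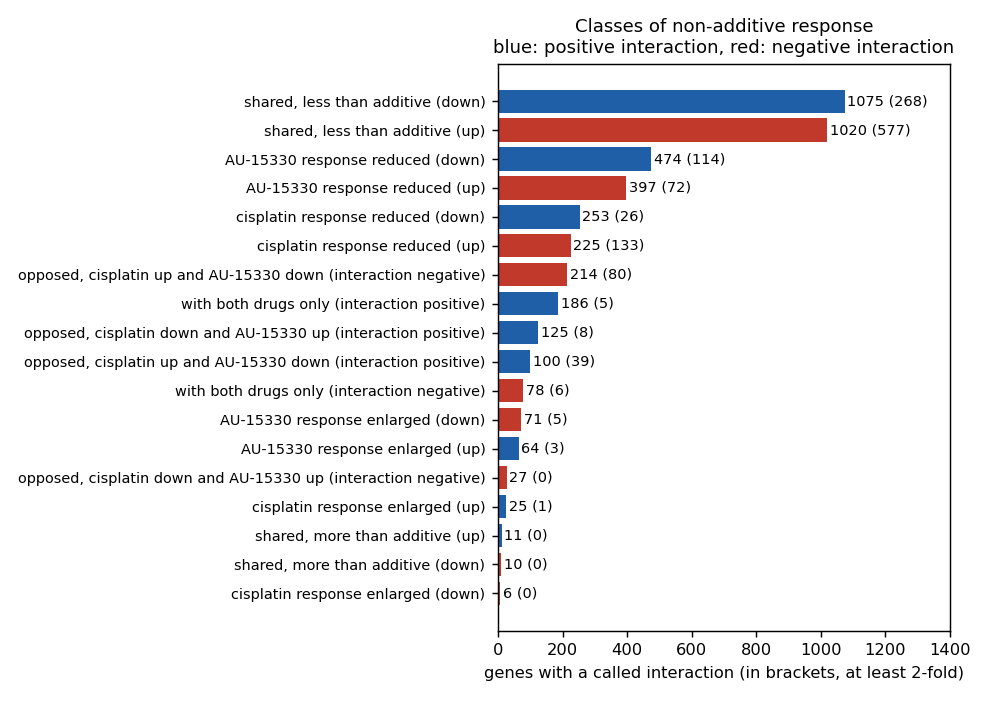
Number of genes with a called interaction in each class of non-additive response (x axis, genes), split by the direction of the response or, for opposed effects and for responses to both drugs only, by the sign of the interaction. Shared responses that were less than additive form the longest bars, with 1020 genes up and 1075 down.

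Among shared up-regulated genes that met the level and sign limits for naming, Usp18 and Ifit1 had the largest interactions. Usp18, a protease that removes ISG15 and restrains interferon receptor signalling, was at 0.145 to 1.18 CPM (median 0.596) in DMSO, 53 to 80.2 CPM (median 71.9) with cisplatin, 40.8 to 66.7 CPM (median 49.6) with AU-15330 and 34.7 to 41.4 CPM (median 38.1) with both. All treated libraries lay above all DMSO libraries, the AU-15330 group overlapped both other treated groups, and the combination lay below cisplatin. Its interaction was −7.19 (standard error 0.27, adjusted p = 9.45e-17), with a cisplatin effect on the log2 scale of 6.75 alone and −0.43 in the presence of AU-15330. Ifit1, which binds viral RNA that lacks the host cap, was at 0.39 to 1.83 CPM (median 0.734) in DMSO, 165 to 248 CPM (median 219) with cisplatin, 15 to 36.6 CPM (median 25.7) with AU-15330 and 33 to 48.9 CPM (median 45.1) with both. Every cisplatin library exceeded every combination library, and AU-15330 and combination libraries overlapped. The interaction was −7.08 (standard error 0.35, adjusted p = 1.75e-14), with a cisplatin effect of 7.83 alone and 0.75 with AU-15330. Reads of Ifit1 could have been divided with its near relatives during counting.

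Interferon-stimulated genes, which cells switch on when interferon binds its receptor, had a negative interaction in 44 of 44 members, beside 15.8% of all tested genes. The median interaction was −4.45 on the log2 scale, or −4.40 with Oas1g and Zbp1, which had a group at the floor, set to their bounds, beside 0.01 over all tested genes. Cisplatin raised 44 of the 44 alone, with a median of 4.40, but in AU-15330-treated cells it raised 15 and lowered 15, with a median of −0.01. AU-15330 raised 38 and lowered 2 alone, with a median of 3.22, and in cisplatin-treated cells it raised 11 and lowered 26, with a median of −0.57. Of all 12941 tested genes, cisplatin raised 3360 alone, and with AU-15330 it raised 2873 and lowered 2521. Over the same genes AU-15330 raised 4681 and lowered 4816 alone, and with cisplatin raised 4579 and lowered 4234. The sign was negative in all 6 replicate numbers for all 44 genes. Over all tested genes, 4490 of 12941 kept 1 sign. Of the 44, 43 or 44 were called under every alternative tried. With cisplatin the list lay at −0.34 to −0.10 from the group median in replicates 1 to 3 and 0.10 to 0.18 in 4 to 6. The median interaction was −4.31 within numbers 1 to 3 and −4.49 within numbers 4 to 6.

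Within the list, Irf7 and Isg15 were well above DMSO under all 3 treatments. Irf7, which amplifies type I interferon production, was at 7.59 to 11.1 CPM (median 8.01) in DMSO, 182 to 262 CPM (median 229) with cisplatin, 154 to 182 CPM (median 169) with AU-15330 and 112 to 148 CPM (median 124) with both, an interaction of −5.14 (standard error 0.14, adjusted p = 1.36e-19). Here the combination lay below both single drugs in every library. Isg15, a ubiquitin-like modifier, had an interaction of −6.47 (standard error 0.23, adjusted p = 4.58e-17), and its AU-15330 libraries, at 295 to 422 CPM (median 357), lay above those of the other 3 groups.

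Other members responded to cisplatin and not in the same way to AU-15330. Oas2, which makes the 2-5A messenger that activates RNase L, was at 0 to 0.627 CPM (median 0.317) in DMSO, 130.2 to 311 CPM (median 205) with cisplatin, 0.238 to 0.945 CPM (median 0.491) with AU-15330 and 1.04 to 2.32 CPM (median 1.21) with both. DMSO and AU-15330 libraries overlapped near the floor, and the combination lay far below cisplatin. Cisplatin libraries lay at 130.2 to 135 CPM in replicates 1 to 3 and 275 to 311 CPM in replicates 4 to 6. Its interaction, the most negative of the list, was −8.05 (standard error 0.76, adjusted p = 1.01e-08). Ifi44 was at 1.18 to 3.22 CPM (median 2.85) in DMSO, 110.5 to 163 CPM (median 145) with cisplatin, 0.992 to 1.77 CPM (median 1.13) with AU-15330 and 1.5 to 3.42 CPM (median 2.08) with both. The combination overlapped DMSO, and the interaction of −4.89 (standard error 0.31, adjusted p = 2.79e-12) placed Ifi44 among genes that the drugs moved in opposite directions. Sp100, a component of PML nuclear bodies, was at 5.69 to 14.9 CPM (median 13.1), 74.3 to 115 CPM (median 94.2), 10.1 to 18.8 CPM (median 12.7) and 13.2 to 16 CPM (median 15), so that only the cisplatin libraries stood apart. Its interaction was −2.95 (standard error 0.28, adjusted p = 9.54e-09). Apol9b, with a cisplatin effect of 6 alone and 2.34 with AU-15330, had an interaction of −3.66 (standard error 0.41, adjusted p = 2.07e-07).

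AU-15330 alone moved Ifit1 and Ifi44 in opposite directions, while both had a negative interaction. Their promoters are shown, as the genes had the largest interactions among list genes named by rule for which a RefSeq entry was found. They are the 250 bases before and 50 after the start of each gene in RefSeq, build GRCm38.p6, at chr19:34640639-34640938 on the plus strand and chr3:151749861-151750160 on the minus strand. Capitals mark an interferon-type element, GAAA, any 2 bases, GAAA, on either strand.
Ifit1: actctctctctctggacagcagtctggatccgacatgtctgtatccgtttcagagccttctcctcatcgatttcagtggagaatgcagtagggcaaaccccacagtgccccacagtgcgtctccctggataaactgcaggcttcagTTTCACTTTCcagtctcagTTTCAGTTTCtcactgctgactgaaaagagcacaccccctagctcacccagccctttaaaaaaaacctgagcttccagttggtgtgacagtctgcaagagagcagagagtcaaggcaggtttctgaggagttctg
Ifi44: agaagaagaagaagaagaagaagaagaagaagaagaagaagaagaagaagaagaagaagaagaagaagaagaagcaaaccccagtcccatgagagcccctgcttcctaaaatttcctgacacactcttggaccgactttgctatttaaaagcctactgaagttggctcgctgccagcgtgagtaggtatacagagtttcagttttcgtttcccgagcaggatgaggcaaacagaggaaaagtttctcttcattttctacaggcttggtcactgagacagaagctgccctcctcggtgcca
Ifit1 held 2 matches and Ifi44 none, which says only that these letters are not in this window. Of the 33 list genes with a promoter entry, 18 held the element (54.5%), against 3.74% of the 10265 tested genes with an entry and 3.44% of all 32851 promoters. The looser AANNGAAA, which is contained in every match of the first element, was found in 27 of the 33 (81.8%), against 20.9% of tested genes and 23.9% of all promoters. The Ifi44 window also holds this looser form, unmarked above, read on the other strand as tttcagtt.

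**Figure D3:**
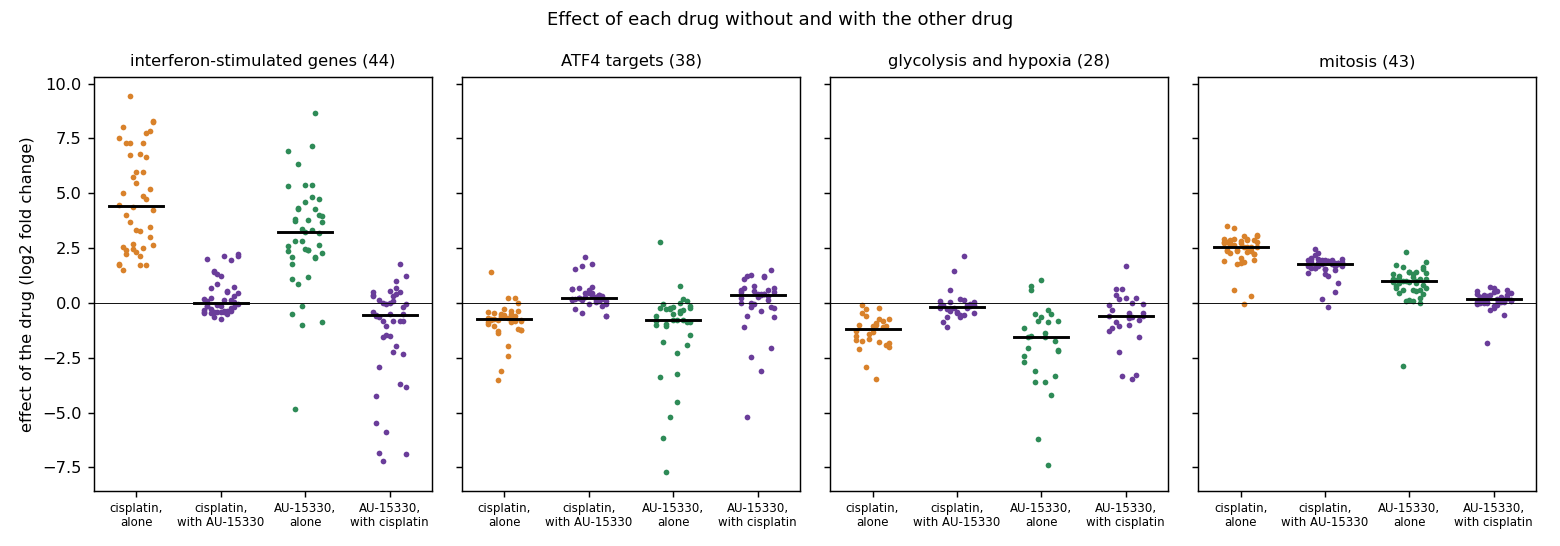
Log2 effect of cisplatin alone, cisplatin with AU-15330, AU-15330 alone and AU-15330 with cisplatin for each gene of 4 lists (points) with the median (line). For interferon-stimulated genes the medians are 4.40, −0.01, 3.22 and −0.57, so each drug's median effect is near or below 0 where the other drug was present.

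Genes of MHC class I presentation, which load peptides for display to T cells, had a negative interaction in 16 of 16 members, beside 15.8% of all tested genes, with a median of −1.38 (−1.29 with H2-Q4 and Nlrc5 at their bounds). Cisplatin raised all 16 alone, beside 3360 of all 12941 tested genes. With AU-15330 present it raised 2 and lowered 5, beside 2873 and 2521 of all. AU-15330 raised all 16 alone, beside 4681 of all, and with cisplatin raised 11 and lowered 2, beside 4579 and 4234. B2m, the invariant light chain of class I molecules, was at 177 to 322 CPM (median 237) in DMSO, 682 to 951 CPM (median 792) with cisplatin, 841 to 1033 CPM (median 929.8) with AU-15330 and 914 to 1358 CPM (median 1115) with both. All treated groups lay above DMSO and overlapped one another, with an interaction of −1.51 (standard error 0.17, adjusted p = 2.21e-07). Tap1, a subunit of the peptide transporter, had an interaction of −1.57 (standard error 0.13, adjusted p = 1.30e-09), and H2-K1, a class I heavy chain whose reads may be shared with related H2 genes, −1.06 (standard error 0.19, adjusted p = 1.30e-04). Nlrc5, a transactivator of class I genes, had at most 0.108 CPM in DMSO, which is at the floor, and taking 3 counts there its interaction was −3.03 or lower. With a fold threshold of 1.5 added, 10 of the 16 calls were left, against 21.2% of all 4361 calls.

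Under the same limits, Aldh1l2 and Slc7a11 had the largest interactions of the down-regulated shared class. Aldh1l2, a mitochondrial enzyme of folate metabolism, was at 33.5 to 185 CPM (median 132) in DMSO, 9.5 to 13.1 CPM (median 11.1) with cisplatin, 0.36 to 0.822 CPM (median 0.688) with AU-15330 and 1.49 to 2.63 CPM (median 1.88) with both. The 4 groups did not overlap, and the combination lay above AU-15330 alone, with an interaction of 5.23 (standard error 0.46, adjusted p = 2.85e-09). Slc7a11, the cystine-glutamate antiporter subunit that supplies cysteine for glutathione, was at 26.8 to 259.6 CPM (median 181), 14.4 to 24.5 CPM (median 17.7), 3.29 to 5.76 CPM (median 4.18) and 11.2 to 26.1 CPM (median 17.1). Cisplatin and combination libraries overlapped, and AU-15330 libraries lay below all others. Cisplatin changed it by −3.1 alone and by 2.07 with AU-15330, an interaction of 5.18 (standard error 0.48, adjusted p = 6.40e-09). The DMSO low value of 26.8 CPM was replicate 1, and the interaction from the libraries numbered 1 was 1.89, against 4.84 to 6.10 for the other numbers. By averaged effects Slc7a11 had a reduced AU-15330 response, outside the shared class.

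Targets of ATF4, the transcription factor of the integrated stress response, had a positive interaction in 32 of 38 members, beside 17.9% of all tested genes, and a negative interaction in 1, Slc7a3, a cationic amino acid transporter. Slc7a3 was not called without the libraries numbered 2, 4, 5 or 6 (adjusted p from 0.0501 to 0.0699). The median was 0.95. Cisplatin lowered 33 of the 38 alone, with a median of −0.71, whereas with AU-15330 it raised 16 and lowered 3, with a median of 0.25. AU-15330 lowered 26 and raised 2 alone, with a median of −0.76, and with cisplatin it raised 17 and lowered 8, with a median of 0.35. Over all 12941 tested genes, cisplatin lowered 3329 alone, and with AU-15330 it raised 2873 and lowered 2521. AU-15330 lowered 4816 and raised 4681 of these genes alone, and with cisplatin raised 4579 and lowered 4234. In DMSO replicate 1 the list lay a median of 0.77 log2 units below the group median. Without that library 32 genes were positive and 1 negative, with a median of 1.03. The median interaction was 0.63 within numbers 1 to 3 and 1.17 within numbers 4 to 6. With a fold threshold of 1.5, 15 of the 32 positive calls were left, against 21.2% of all calls. The sign was the same in all 6 replicate numbers for 21 of the 38. With averaged effects the shared class held 6 of the 33 called genes, against 22 by single-drug effects.

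Atf4 itself was at 382 to 814 CPM (median 578) in DMSO, 281 to 434 CPM (median 307) with cisplatin, 318 to 385 CPM (median 344) with AU-15330 and 349.7 to 454 CPM (median 375) with both. All 4 groups overlapped, and the interaction was 0.99 (standard error 0.17, adjusted p = 7.85e-05). Trib3, a pseudokinase induced by ATF4, was at 39 to 206 CPM (median 131), 29.1 to 37.8 CPM (median 32.6), 18 to 33.4 CPM (median 26) and 38.6 to 49.9 CPM (median 42.6) in the same order, an interaction of 2.68 (standard error 0.33, adjusted p = 7.37e-07). Asns, asparagine synthetase, was lowered by cisplatin alone (−1.03) and not by AU-15330 alone (−0.06, adjusted p = 0.775). With both drugs its libraries lay at 170.0 to 225 CPM (median 194), above those with cisplatin at 73.7 to 109 CPM (median 77.8), and the interaction was 1.27 (standard error 0.25, adjusted p = 3.44e-04). Ddit3, which encodes CHOP, had the same pattern, with 36.2 to 58.7 CPM (median 37.5) under cisplatin and 87.4 to 108 CPM (median 102) under the combination, an interaction of 1.54 (standard error 0.28, adjusted p = 1.59e-04). For Asns and Ddit3 the sign was positive in 5 of 6 replicate numbers. Phgdh, the first enzyme of serine synthesis, had no called interaction, at 0.11 (standard error 0.2, adjusted p = 0.702).

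The promoter of Slc7a11 is shown as that of the gene with the largest interaction among ATF4 targets for which a RefSeq entry was found. It spans chr3:50443564-50443863 on the minus strand (GRCm38.p6), with the ATF4 element TGATGNAA in capitals, on either strand.
Slc7a11: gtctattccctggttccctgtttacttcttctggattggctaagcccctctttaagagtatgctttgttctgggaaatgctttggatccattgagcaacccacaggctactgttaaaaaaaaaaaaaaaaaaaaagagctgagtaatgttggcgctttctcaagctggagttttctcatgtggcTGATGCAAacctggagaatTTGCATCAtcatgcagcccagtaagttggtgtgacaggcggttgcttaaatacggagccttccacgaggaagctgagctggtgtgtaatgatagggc
It held 2 matches, in opposite orientations. Of the 30 ATF4 targets with an entry, 10 held the element (33.3%), against 2.69% of tested genes and 3.97% of all promoters.

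Calls in the neighbouring stress programmes were positive as well. Genes of the unfolded protein response of the endoplasmic reticulum were positive in 18 of 24, beside 17.9% of all tested genes, and negative in 0, with a median of 0.66, cisplatin effects of −0.70 alone and −0.02 with AU-15330, and 20 positive without DMSO replicate 1. The median interaction was 0.41 within numbers 1 to 3 and 0.78 within numbers 4 to 6. With a fold threshold of 1.5, 5 positive calls stayed, against 21.2% of all calls. For 12 of the 24 genes the sign was the same in all 6 replicate numbers. Hspa5, the chaperone BiP, was at 814 to 3809.8 CPM (median 2752) in DMSO, 794 to 864 CPM (median 818) with cisplatin, 646 to 727 CPM (median 692) with AU-15330 and 772 to 858 CPM (median 807) with both. Its lowest DMSO library, replicate 1, lay within the range of cisplatin, and the interaction was 1.89 (standard error 0.27, adjusted p = 5.46e-06). Ero1l, an oxidase of disulfide formation, had the largest interaction of the list, 3.31 (standard error 0.43, adjusted p = 1.77e-06), and its 4 groups did not overlap. NRF2 targets were positive in 17 of 25, beside the same 17.9%, and negative in 0, with a median of 0.68, and 9 positive calls were left with that threshold. In DMSO and with cisplatin this list lay above the group median in replicates 1 to 3 and below it in 4 to 6. The median interaction was 0.77 and 0.54 within these sets. Hmox1, heme oxygenase 1, was lowered by cisplatin alone and raised by AU-15330, at 281 to 393 CPM (median 319.9) in DMSO, 144 to 259.7 CPM (median 187) with cisplatin, 1173 to 1693 CPM (median 1208) with AU-15330 and 1646 to 2319 CPM (median 1868) with both, an interaction of 1.3 (standard error 0.21, adjusted p = 2.80e-05). Gstm1, a glutathione transferase, had the list's largest interaction, 2.09 (standard error 0.28, adjusted p = 2.48e-06).

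Metabolic genes of glycolysis and hypoxia were positive in 22 of 28 members, beside 17.9% of all tested genes, and negative in 1, Hk1, with a median of 0.95. The median cisplatin effect was −1.19 alone and −0.19 with AU-15330, and that of AU-15330 was −1.56 alone and −0.59 with cisplatin. Vegfa, the angiogenic factor, was at 936 to 1446 CPM (median 1069) in DMSO, 185 to 444 CPM (median 276) with cisplatin, 97.7 to 121 CPM (median 117) with AU-15330 and 88.8 to 109 CPM (median 104) with both. The AU-15330 and combination libraries overlapped, and the interaction was 1.76 (standard error 0.23, adjusted p = 1.53e-06). Slc2a1, the glucose transporter GLUT1, had an interaction of 1.4 (standard error 0.18, adjusted p = 1.20e-06), with AU-15330 libraries at 25.9 to 38.2 CPM (median 30.0) and combination libraries at 24.8 to 33.9 CPM (median 28.5). P4ha2, a collagen prolyl hydroxylase subunit, had the list's largest interaction, 3.93 (standard error 0.56, adjusted p = 6.70e-06). Hk1, a hexokinase, went the other way, at 276 to 328 CPM (median 291) in DMSO, 246 to 264 CPM (median 259) with cisplatin, 209 to 267 CPM (median 239.8) with AU-15330 and 149 to 176 CPM (median 164) with both, an interaction of −0.33 (standard error 0.1, adjusted p = 0.00941). Within DMSO the list varied between libraries, from −0.66 to 0.55 around the group median, and replicates 1 to 3 (0.33 to 0.55) lay above replicates 4 to 6 (−0.66 to −0.18). Cisplatin libraries split in the same way, 0.12 to 0.39 against −0.45 to −0.12. The median interaction was 1.05 within numbers 1 to 3 and 0.89 within numbers 4 to 6. Without DMSO replicate 1, 19 members were positive and 2 negative, and with a fold threshold of 1.5, 7 were positive and 0 negative. Of all calls, 21.2% were left at that threshold.

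Cholesterol synthesis genes were positive in 13 of 24, beside 17.9% of all tested genes, and negative in 0, with a median of 0.91. The median cisplatin effect was −0.58 alone and 0.23 with AU-15330. In DMSO this list also lay higher in replicates 1 to 3 (0.20 to 0.54) than in 4 to 6 (−0.26 to −0.17), and the median interaction was 1.05 and 0.49 within these sets. With a fold threshold of 1.5, 5 positive calls were left, beside 21.2% of all calls. Sqle, squalene epoxidase, was at 188 to 356 CPM (median 204) in DMSO, 117 to 184 CPM (median 126) with cisplatin, 40.5 to 51.7 CPM (median 48.4) with AU-15330 and 53.3 to 77.5 CPM (median 70.5) with both, with no overlap and an interaction of 1.37 (standard error 0.21, adjusted p = 1.63e-05). Hmgcs1, an early enzyme of the pathway, had an interaction of 0.4 (standard error 0.19, adjusted p = 0.101), which did not pass. Genes of oxidative phosphorylation, by contrast, were called in 4 of 54 (3 positive, 1 negative), beside 33.7% of all tested genes, with a median of 0.17. Replicate 1 lay highest for this list in all 4 groups, from 0.21 over the group median with AU-15330 to 0.59 in DMSO. The median interaction was 0.03 without DMSO replicate 1 and 0.09 without all libraries numbered 1. With the replicate block 8 were positive and 1 negative, beside 5303 calls in all 12941 genes. Sdhc, a subunit of succinate dehydrogenase, had the largest positive value, 0.58 (standard error 0.13, adjusted p = 9.30e-04), and Ndufa4, a subunit associated with complex IV, the only negative call, −0.56 (standard error 0.18, adjusted p = 0.0166), which was lost without the libraries numbered 2 (adjusted p = 0.0617). Without those numbered 3 there was 1 positive call. The 4 calls of oxidative phosphorylation genes were lost when a fold threshold of 1.5 was added.

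Mitosis genes had a negative interaction in 23 of 43 members, beside 15.8% of all tested genes, with a median of −0.74, and a positive interaction in 1, Cdc25b. Cisplatin raised 42 of them alone, with a median of 2.57, and 41 with AU-15330, with a median of 1.79. Of all 12941 tested genes it raised 3360 and 2873, respectively. AU-15330 raised 35 alone and 9 with cisplatin, beside 4681 and 4579 of all tested genes. Ndc80, a kinetochore protein, was at 2.84 to 5.98 CPM (median 5.11) in DMSO, 43.2 to 66.7 CPM (median 46.7) with cisplatin, 9.86 to 27.4 CPM (median 12.7) with AU-15330 and 45.5 to 62.3 CPM (median 52.8) with both. Cisplatin and combination libraries overlapped and lay above the others, with an interaction of −1.6 (standard error 0.28, adjusted p = 9.32e-05). Mki67, the proliferation antigen Ki-67, had an interaction of −1.02 (standard error 0.32, adjusted p = 0.0142) and the same sign in 5 of 6 replicate numbers, with 249.9 to 375 CPM (median 338) under cisplatin and 272 to 379 CPM (median 304) under the combination. Cdc25b, a phosphatase that activates CDK1, was raised by cisplatin and lowered by AU-15330, with an interaction of 1.07 (standard error 0.19, adjusted p = 1.48e-04). The list varied within groups, from −0.43 to 0.66 around the median of DMSO libraries and from −0.23 to 0.88 in AU-15330 libraries. Replicates 1 to 3 lay above replicates 4 to 6 in both groups, and the median interaction was −0.67 and −0.81 within these sets. Without the libraries numbered 1, 15 members were negative, and with a fold threshold of 1.5, 7 were, where 21.2% of all calls were left. For 19 of the 43 genes the sign was the same in all 6 replicate numbers.

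Of the DNA replication genes, cisplatin raised 40 of 45 alone (median 1.33) and 45 with AU-15330 (median 1.17). Of all 12941 tested genes it raised 3360 alone and 2873 with AU-15330. The interaction of the replication genes was positive in 6 and negative in 14 (44.4% called, beside 33.7% of all tested genes), with a median of −0.14. Replicate 1 lay above the other libraries for this list in all 4 groups, by 0.27 to 0.51 over the group median, and the list's median interaction was −0.07 without the libraries numbered 1 and −0.22 without replicate 1 of DMSO alone. With a fold threshold of 1.5 there was 1 call in each direction. Pole, the catalytic subunit of DNA polymerase epsilon, was at 5.87 to 10.7 CPM (median 7.59) in DMSO, 45 to 64.6 CPM (median 61) with cisplatin, 22.7 to 40.5 CPM (median 26.9) with AU-15330 and 77.7 to 98.8 CPM (median 83.3) with both. The groups did not overlap and the combination lay highest, although the interaction was −1.33 (standard error 0.19, adjusted p = 9.95e-06). Dut, the dUTPase that keeps uracil out of DNA, had 1.01 (standard error 0.18, adjusted p = 1.06e-04), with a cisplatin effect of −0.33 alone and 0.69 with AU-15330. Mcm2, a subunit of the replicative helicase, had −0.11 (standard error 0.16, adjusted p = 0.62) and did not pass. There were 3 positive calls without the libraries numbered 3, 4 or 6, and 9 negative calls without those numbered 5.

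Repair of platinum lesions gave 5 positive and 7 negative calls in 38 tested genes (31.6%), beside 33.7% of all tested genes. The negative calls included homologous recombination and Fanconi anaemia genes that each drug raised alone. Brca1 was at 5.6 to 8.29 CPM (median 7.24) in DMSO, 44.8 to 66.9 CPM (median 57.8) with cisplatin, 26.2 to 42.4 CPM (median 28.6) with AU-15330 and 92.4 to 105 CPM (median 97.8) with both. The combination was highest and overlapped no other group, with an interaction of −1.36 (standard error 0.15, adjusted p = 1.71e-07). Brip1, a helicase that binds BRCA1, had −2.31 (standard error 0.22, adjusted p = 1.44e-08), with a cisplatin effect of 2.47 alone and 0.16 (adjusted p = 0.403) with AU-15330. Rad18, a ubiquitin ligase of translesion synthesis, had the largest positive value, 0.69 (standard error 0.25, adjusted p = 0.0321), positive in 5 of 6 replicate numbers, and it was not called without the libraries numbered 2, 3 or 6 (adjusted p from 0.0851 to 0.161). Without those numbered 3 there were 3 positive and 6 negative calls. There were 5 negative and 0 positive calls with a fold threshold of 1.5.

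Genes listed as p53 targets were measured in cells whose Trp53 is disrupted, and 6 of 26 were positive and 2 negative (30.8%), a share near the 33.7% of all tested genes. Cdkn1a, the inhibitor p21, was at 38.3 to 84 CPM (median 55.1) in DMSO, 15.5 to 29.2 CPM (median 18.9) with cisplatin, 2.25 to 5.4 CPM (median 3.75) with AU-15330 and 11.2 to 14.4 CPM (median 12.8) with both. The groups did not overlap, and cisplatin lowered it alone (−1.5) but raised it in AU-15330-treated cells (1.77), an interaction of 3.27 (standard error 0.27, adjusted p = 7.48e-10). Fas, a death receptor, had −1.7 (standard error 0.63, adjusted p = 0.0399), negative in 5 of 6 replicate numbers and from at most 0.377 CPM in DMSO. Without the libraries of any replicate number from 1 to 5 it was not called (adjusted p from 0.0511 to 0.116), nor without replicate 1 of DMSO alone (0.0573). Mdm2, the ubiquitin ligase of p53, had −0.02 (standard error 0.08, adjusted p = 0.866) and did not pass. The negative calls numbered 1 without the libraries numbered 2, 3, 4 or 5, and 3 without those numbered 1. They numbered 4 with library totals or with DESeq2's Wald test. With the replicate block 9 members were positive and 5 negative, beside 5303 calls in all 12941 genes. There were 3 positive and 0 negative calls with a fold threshold of 1.5.

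**Figure D4:**
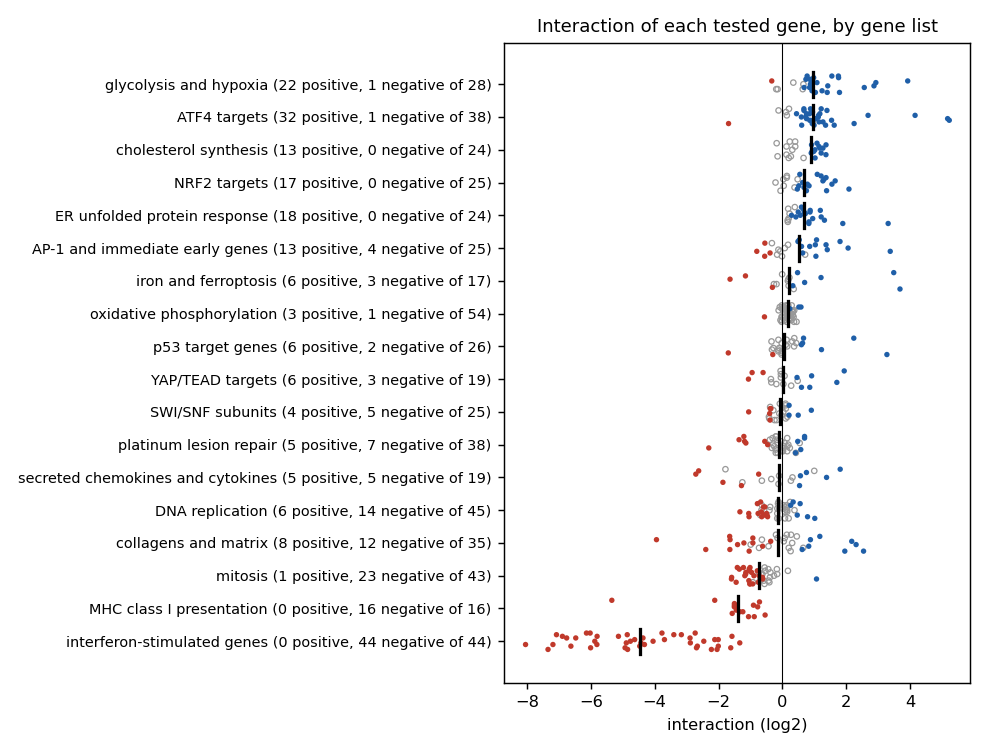
Interaction on the log2 scale (x axis) for the genes of each of 18 lists, each point being a gene, with positive and negative calls counted in the labels. Interferon-stimulated genes (median −4.45) and MHC class I genes (median −1.38) lie below 0, and ATF4 targets and glycolysis and hypoxia genes (both 0.95) lie mostly above it.

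AP-1 and immediate early genes were positive in 13 of 25, beside 17.9% of all tested genes, and negative in 4, beside 15.8%, with a median of 0.53. Fosl1, a Fos-family subunit of AP-1, was at 5.75 to 12.6 CPM (median 11) in DMSO, 5.31 to 10.7 CPM (median 5.8) with cisplatin, 0.191 to 0.855 CPM (median 0.431) with AU-15330 and 1.73 to 4.71 CPM (median 3.11) with both. DMSO and cisplatin overlapped, and AU-15330 libraries were lowest. Its interaction was 3.38 (standard error 0.4, adjusted p = 3.74e-07), with a cisplatin effect of −0.63 alone and 2.75 with AU-15330. Jun, the usual partner in AP-1, had 0.6 (standard error 0.18, adjusted p = 0.0135), and Fos had −0.01 (standard error 0.27, adjusted p = 0.982), which did not pass. Zfp36, which destabilises cytokine mRNAs, had the most negative value, −0.8 (standard error 0.22, adjusted p = 0.00553), although its groups all overlapped. The 4 negative calls fell to 1 without the libraries numbered 6 and to 2 without those numbered 3 or 5, and with a fold threshold of 1.5, 6 positive and 0 negative calls were left.

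Secreted chemokines and cytokines did not move together, with 5 positive and 5 negative calls in 19 tested genes, beside 17.9% and 15.8% of all tested genes. Cxcl10, an interferon-inducible chemokine for T cells, was at 0.186 to 1.07 CPM (median 0.496) in DMSO, 25 to 65.6 CPM (median 41.3) with cisplatin, 2.03 to 3.87 CPM (median 2.76) with AU-15330 and 21.4 to 62.7 CPM (median 32) with both. Cisplatin and combination libraries overlapped, with an interaction of −2.62 (standard error 0.46, adjusted p = 1.02e-04). Ccl5, a chemokine for T cells and NK cells, reached its highest levels with the combination, 45.9 to 101 CPM (median 65.5) against 26.1 to 34.3 CPM (median 30.2) with cisplatin, while its interaction was −0.74 (standard error 0.27, adjusted p = 0.0367). Lif, a cytokine of the IL-6 family, had a positive interaction of 1.38 (standard error 0.18, adjusted p = 1.48e-06), with a cisplatin effect of 0.62 alone and 2 with AU-15330. Il34, a ligand of the CSF1 receptor, had 1.81 (standard error 0.31, adjusted p = 6.92e-05), the largest positive value of the list. Il18 was at 2.94 to 6.12 CPM (median 4.97) with cisplatin and at or below 0.287 CPM with both, and its AU-15330 libraries were at the floor, so its fitted interaction is no bound. It was not called without the libraries numbered 2, 5 or 6 (adjusted p from 0.0622 to 0.201), and without those numbers 2 members were negative. Under a fold threshold of 1.5, 2 calls in each direction were left.

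Matrix genes, YAP/TEAD targets and iron genes gave calls in both directions, 8 positive and 12 negative of 35, 6 and 3 of 19, and 6 and 3 of 17, respectively, beside 17.9% positive and 15.8% negative over all tested genes. The negative shares of the last 2 lists are near that of all genes. Bgn, the matrix proteoglycan biglycan, was at 899.8 to 1673 CPM (median 1137) in DMSO, 819 to 1124 CPM (median 1055) with cisplatin, 1.81 to 9.59 CPM (median 2.07) with AU-15330 and 7.95 to 29.7 CPM (median 15.9) with both. DMSO and cisplatin overlapped, as did AU-15330 and the combination, and the interaction was 2.54 (standard error 0.46, adjusted p = 1.31e-04). Col1a1, a chain of type I collagen, had 1.95 (standard error 0.33, adjusted p = 6.80e-05), with a cisplatin effect of −0.72 alone and 1.24 with AU-15330. Lum, which was at 0 in all DMSO libraries, gives no direction, since its bound was 0.82 and its fitted value −3.94. F3, tissue factor, was called positive at 1.94 (standard error 0.15, adjusted p = 3.88e-10) and Crim1 negative at −1.06 (standard error 0.18, adjusted p = 6.56e-05). Trf, transferrin, fell from 3174 to 7771 CPM (median 4820.0) in DMSO and 1479.9 to 3839 CPM (median 1740.0) with cisplatin to 5.24 to 7.38 CPM (median 6.01) with AU-15330 and 23.6 to 56.3 CPM (median 38.8) with both, an interaction of 3.68 (standard error 0.38, adjusted p = 5.59e-08). Steap3, an endosomal ferrireductase, had −1.64 (standard error 0.3, adjusted p = 1.66e-04). The positive matrix calls numbered 5 without the libraries numbered 2 or 4 and 4 without those numbered 6, and the negative YAP/TEAD calls 5 without those numbered 1. With a fold threshold of 1.5, the matrix genes had 4 calls in each direction, YAP/TEAD targets 2 positive and 1 negative, and iron genes 3 positive and 2 negative.

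SWI/SNF subunit genes gave 4 positive and 5 negative calls in 25 tested genes (36.0%), a share near the 33.7% of all tested genes. Smarca4 was at 218 to 265 CPM (median 250.1) in DMSO, 292 to 333 CPM (median 322) with cisplatin, 377 to 402 CPM (median 383) with AU-15330 and 373 to 397 CPM (median 387) with both, an interaction of −0.39 (standard error 0.08, adjusted p = 4.35e-04). AU-15330 and combination libraries overlapped. Smarca2 had −0.36 (standard error 0.12, adjusted p = 0.0205) and its lowest median with the combination, at 200.4 to 273 CPM (median 256). Phf10, a subunit of the PBAF form, had the largest positive value, 0.91 (standard error 0.12, adjusted p = 1.51e-06), and Smarcd3 the most negative, −1.06 (standard error 0.12, adjusted p = 2.47e-07). The positive calls numbered 2 without the libraries of any replicate number from 2 to 6, and the negative calls 2 without those numbered 5 and 3 without those numbered 3 or 4. Under a fold threshold of 1.5, 1 call in each direction was left.

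Beyond the shared class, 478 genes that AU-15330 alone did not change had a reduced cisplatin response, 225 of them raised by cisplatin and 253 lowered. By averaged effects the class held 306 genes, 132 raised and 174 lowered, and both genes described next, Id2 and Abcc4, were then among those that cisplatin lowered and AU-15330 raised. With AU-15330 present the effect of cisplatin was no longer called for 163 of the 225 and 188 of the 253, and it was reversed for 20 and 33. Id2, an inhibitor of basic helix-loop-helix factors, was at 36.7 to 173 CPM (median 69.6) in DMSO, 19.1 to 50.2 CPM (median 28) with cisplatin, 103 to 213 CPM (median 121) with AU-15330 and 151 to 220.4 CPM (median 158) with both. DMSO overlapped the 3 other groups, at 101 to 173 CPM in replicates 1 to 3 and 36.7 to 38.5 CPM in replicates 4 to 6. Cisplatin libraries split in the same way, 33.4 to 50.2 CPM against 19.1 to 22.7 CPM. The interaction was 1.8 (standard error 0.47, adjusted p = 0.00419). Abcc4, an efflux transporter of nucleotides and drugs, was at 66.2 to 227 CPM (median 191), 42.8 to 53.1 CPM (median 44.8), 156 to 177 CPM (median 164) and 116 to 144 CPM (median 132) in the same order. The cisplatin libraries lay below all others, with an interaction of 1.55 (standard error 0.23, adjusted p = 1.51e-05).

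A reduced AU-15330 response, in genes that cisplatin alone did not change, was found for 871 genes, 397 up and 474 down. The effect of AU-15330 kept its direction for 258 and 233 of them, respectively. Tnfrsf21, which encodes death receptor 6, was at 36.8 to 68.8 CPM (median 42.1) in DMSO, 39.5 to 48.2 CPM (median 42.5) with cisplatin, 538 to 748 CPM (median 677) with AU-15330 and 166 to 225 CPM (median 193) with both. The combination lay between AU-15330 and the untreated level in every library, with an interaction of −1.59 (standard error 0.18, adjusted p = 3.10e-07). Ccdc171 had −1.75 (standard error 0.27, adjusted p = 1.66e-05), with AU-15330 effects of 3.2 alone and 1.45 with cisplatin. In the other direction, Bgn, described above, had AU-15330 effects of −8.52 alone and −5.97 with cisplatin. By averaged effects the 3 genes were among those on which the drugs acted in opposite directions.

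Genes on which the drugs acted in opposite directions were split by the sign of the interaction. Cisplatin raised and AU-15330 lowered 314 of them, with a negative interaction for 214 and a positive one for 100. The majority turned with averaged effects, by which this class held 298 genes with a negative and 346 with a positive interaction. Crip1, a LIM-domain protein, was at 33.3 to 88.9 CPM (median 40.9) in DMSO, 95.5 to 189 CPM (median 114) with cisplatin, 28.5 to 47.4 CPM (median 33.8) with AU-15330 and 26 to 38 CPM (median 27.2) with both, so that only cisplatin stood above the rest. Its interaction was −1.65 (standard error 0.3, adjusted p = 1.22e-04). Ankrd1, a target of YAP and TEAD, was at 75.5 to 148 CPM (median 96.1), 172 to 249.7 CPM (median 211), 15.7 to 54.2 CPM (median 24.4) and 142 to 302 CPM (median 191), and the combination overlapped cisplatin. Its interaction was 1.71 (standard error 0.33, adjusted p = 3.07e-04), with an AU-15330 effect of −1.75 alone and −0.05 (adjusted p = 0.87) with cisplatin. Pdgfb, a growth factor for mesenchymal cells, had 1.74 (standard error 0.29, adjusted p = 4.69e-05) with no overlap between groups.

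Cisplatin lowered and AU-15330 raised 152 genes with an interaction, 125 positive and 27 negative, and the 152 ranged from 82 without the libraries numbered 3 to 190 without those numbered 1. By averaged effects the split was even, 213 positive and 213 negative. Areg, a ligand of the EGF receptor, was at 4.64 to 10.4 CPM (median 8.65) in DMSO, 1.28 to 2.96 CPM (median 1.7) with cisplatin, 24.6 to 50.6 CPM (median 29.6) with AU-15330 and 34.9 to 39.3 CPM (median 36.8) with both. AU-15330 and combination libraries overlapped above DMSO, and cisplatin lay below it, with an interaction of 2.25 (standard error 0.29, adjusted p = 1.41e-06). Steap1, of the metalloreductase family, had 2 (standard error 0.22, adjusted p = 1.71e-07). Ints4, a subunit of the Integrator complex, had a negative interaction of −0.9 (standard error 0.13, adjusted p = 1.10e-05), with combination libraries that overlapped both DMSO and cisplatin, at 147 to 193 CPM (median 171). Narf had −0.67 (standard error 0.14, adjusted p = 7.04e-04). Narf had an enlarged cisplatin response by averaged effects.

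**Figure D5:**
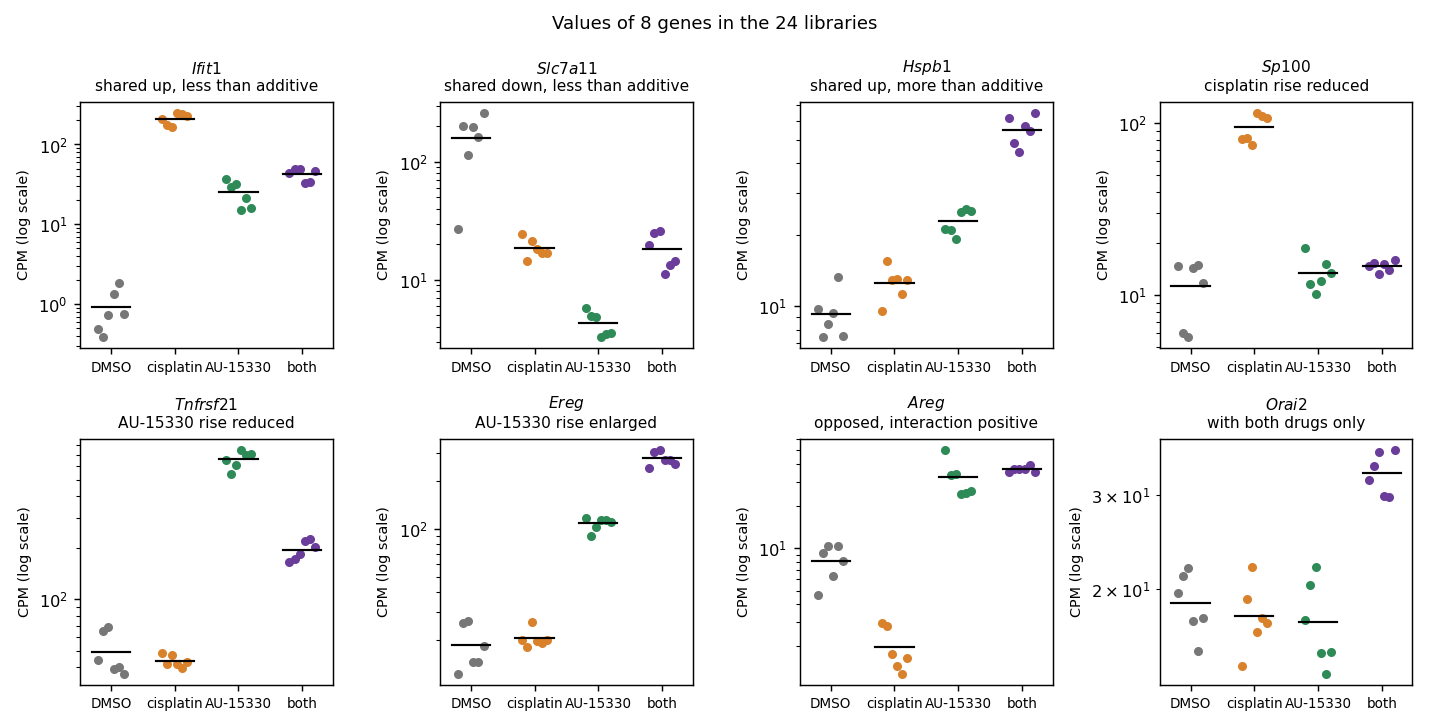
CPM on a log axis in each of the 24 libraries for 8 genes, with points from left to right being replicates 1 to 6 of a group and the line the group mean. Ifit1 and Sp100 are highest with cisplatin and far lower with both drugs, Slc7a11 is highest in DMSO with replicate 1 low, and Orai2 and Hspb1 are highest with both drugs.

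Enlarged responses, counted from single-drug effects, were fewer than reduced ones. Among shared responses, 21 were more than additive, 11 up and 10 down, a count that ranged from 7 without the libraries numbered 2 to 36 without those numbered 1. With averaged effects 211 genes were in this class. Hspb1, a small heat shock protein, was at 7.45 to 13.2 CPM (median 8.92) in DMSO, 9.58 to 15.6 CPM (median 12.9) with cisplatin, 19.2 to 25.6 CPM (median 23) with AU-15330 and 44.5 to 64.6 CPM (median 55.5) with both. The combination lay above all other libraries, with an interaction of 0.84 (standard error 0.18, adjusted p = 9.25e-04). Nceh1, a cholesterol ester hydrolase, was at 43.5 to 55.7 CPM (median 48.4), 46.9 to 64.5 CPM (median 58.2), 55.5 to 74.3 CPM (median 61.4) and 111 to 125 CPM (median 120.1), and only the combination stood apart, with 0.7 (standard error 0.11, adjusted p = 2.02e-05). In the other direction, Rab27b, a GTPase of vesicle secretion, had −0.42 (standard error 0.1, adjusted p = 0.0023), and Mxd4, a repressor that binds MAX, −0.38 (standard error 0.14, adjusted p = 0.031), a call lost without the libraries numbered 2, 3 or 6 (adjusted p from 0.0655 to 0.107).

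Cisplatin had a larger effect with AU-15330 for 31 genes that AU-15330 alone did not change (11 without the libraries numbered 6), and AU-15330 a larger effect with cisplatin for 135 (89 without those numbered 3 or 6). With averaged effects these classes held 140 and 320 genes. Ung, the uracil-DNA glycosylase, was at 15.8 to 22.5 CPM (median 17.8) in DMSO, 19.7 to 24.2 CPM (median 21.3) with cisplatin, 15.2 to 19.3 CPM (median 16.7) with AU-15330 and 34.6 to 43.8 CPM (median 38.1) with both, an interaction of 0.97 (standard error 0.12, adjusted p = 1.13e-06). Every combination library exceeded every other library. Nolc1, a nucleolar protein, had 0.6 (standard error 0.13, adjusted p = 6.83e-04), and the circadian gene Per3 −0.55 (standard error 0.18, adjusted p = 0.0176), with combination libraries at 12.2 to 18.8 CPM (median 15.7). Igdcc4 had −0.55 (standard error 0.17, adjusted p = 0.0149). Without the libraries numbered 5 neither Per3 (adjusted p = 0.0591) nor Igdcc4 (0.059) was called, nor Per3 without those numbered 6 (0.0675). Ereg, a ligand of the EGF receptor like Areg, was at 12.4 to 26.4 CPM (median 16.5), 18.1 to 25.9 CPM (median 19.9), 90.6 to 118 CPM (median 112) and 242 to 313 CPM (median 271), with combination libraries above all others and an interaction of 1.22 (standard error 0.2, adjusted p = 3.02e-05). Camk2n2, an inhibitor of CaMKII, had 0.92 (standard error 0.18, adjusted p = 3.86e-04). Ppargc1a, a coactivator of mitochondrial biogenesis, had −1.01 (standard error 0.28, adjusted p = 0.00736), and Zbtb7c −0.96 (standard error 0.21, adjusted p = 0.00114). Ung, Nolc1, Per3, Igdcc4 and Ereg were shared and more than additive by averaged effects.

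A further 264 genes had an interaction although neither drug alone passed the test, 186 positive and 78 negative. Orai2, a calcium channel subunit, was at 15.3 to 21.9 CPM (median 18.6) in DMSO, 14.3 to 22 CPM (median 17.4) with cisplatin, 13.8 to 22 CPM (median 16.3) with AU-15330 and 29.8 to 36.6 CPM (median 33) with both. The first 3 groups overlapped and the combination lay above them, with an interaction of 1.01 (standard error 0.16, adjusted p = 2.99e-05). Cdkn2d, an inhibitor of CDK4 and CDK6, had the same layout, with 25 to 39.5 CPM (median 33.8) under both drugs and 0.95 (standard error 0.21, adjusted p = 0.001). Cxxc4 lay below the other groups with both drugs, at 10.7 to 12.9 CPM (median 10.8), with −0.88 (standard error 0.26, adjusted p = 0.01). Ppm1k, a phosphatase that activates the branched-chain ketoacid dehydrogenase, had −0.77 (standard error 0.23, adjusted p = 0.0131), with all 4 groups overlapping. By averaged effects Orai2, Cdkn2d and Cxxc4 were shared and more than additive, and Ppm1k had an enlarged AU-15330 response.

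The classes depend on the scale on which effects are combined. On the linear CPM scale, where the expectation is the sum of the 2 differences, 4148 of the 4361 genes had the same sign as on the log2 scale and 213 the opposite sign, 85 of them by more than 2 standard errors. Of the 1020 shared up-regulated genes that were less than multiplicative, 115 were more than additive in CPM, 42 of them by more than 2 standard errors. The opposed genes that cisplatin raised and AU-15330 lowered, with a positive interaction, changed sign most often, 62 of 100. For Ifit1 the linear interaction was −193 CPM (standard error 15), of the same sign as on the log2 scale. Among the genes named above, the sign turned by more than 2 standard errors for 5: Pdgfb, at −50.0 CPM (standard error 11.2), Cdc25b, at −19.1 CPM (3.95), Brca1, at 17 CPM (4.4), Ccl5, at 33.4 CPM (8.75), and H2-Q4, which had a group at the floor, at 1.35 CPM (0.381).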

How the data were processed

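RNA was measured in 24 libraries of ID8 Trp53−/− cells, 6 in each of 4 groups. Per the labels and the study's methods, polyadenylated RNA was sequenced single-end from strand-specific libraries, and the authors aligned reads with STAR (2.7.1a, mm10, in the submitters' processing notes) and deposited raw counts per gene symbol. DESeq2 1.36.0 is also named there. The counting tool, annotation and use of strand are not given in the sources used here. All 48 columns were matched to libraries by name, and counts from both lanes of a library were added.

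Counts were fitted in R 4.3.3 with edgeR 4.0.16 (filterByExpr, TMM, quasi-likelihood F test, group means, 20 residual degrees of freedom). Benjamini-Hochberg adjustment ran over all 12941 genes, with calls at 0.05. A drug effect or interaction not called was treated as none when classes were assigned. Library totals ran from 17592588 to 25260009. Alternatives used DESeq2 1.42.0, limma 3.58.1, other scalings, filters, a fold threshold, the replicate block, averaged drug effects and left-out replicates.

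Named genes were, per class and direction, the 2 called genes with the largest interaction (mean log2 CPM of at least 4, no group mean under 0.5 CPM, 1 sign in 6 of 6 replicate numbers), and per list the most positive and most negative call. A gene named by this rule is not reported here. Other list members and the choice of values shown were taken after their values were seen. The gene lists and classes were chosen with earlier results of these data known. Values within replicate numbers 1 to 3 and 4 to 6 were added after the levels by library were seen.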

Additional observations from a re-analysis of the deposited data

Results flagged for a closer look

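The interaction is itself a difference between groups, and 4361 genes were flagged by its test, as described above. Among 180 groups of 6 values examined for a lone high or low library, 10 were flagged, where 1 in 20 would be 9. That rate holds for unselected groups, and these came from genes chosen by the size and sign of their interaction. It therefore cannot tell whether the flags are chance. In 9 of the 10 the distant value came from replicate number 1.

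Divided by the range of its group, the distance to the nearest library was 0.877 for Bgn with AU-15330 (9.59 CPM in replicate 1, 1.81 to 2.77 CPM in the others) and 0.631 for Bgn with cisplatin (819 CPM in replicate 1, 1012 to 1124 CPM in the others). For Id2 it was 0.768 with AU-15330 (213 CPM against 103 to 129 CPM) and 0.851 with both drugs (220.4 CPM against 151 to 162 CPM), replicate 1 in each. With AU-15330 it was 0.638 for Areg (50.6 CPM in replicate 1 against 24.6 to 34 CPM) and 0.794 for Pdgfb (3.69 CPM in replicate 1 against 1.56 to 2 CPM). With both drugs it was 0.709 for Crip1 (38 CPM in replicate 1 against 26 to 29.5 CPM), and with cisplatin 0.87 for Mxd4 (31.3 CPM in replicate 1 against 44.1 to 46 CPM). For the interaction of Slc7a11 by replicate number it was 0.7 (1.89 for number 1 against 4.84 to 6.10). The exception was Ereg with cisplatin, 0.726, where replicate 3 lay at 25.9 CPM and the others at 18.1 to 20.2 CPM.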

How the results depend on the processing

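Of 971 values for the 65 named genes under 15 alternatives, 924 kept their direction and their call, 47 kept their direction and lost the call (23 of them at the fold threshold), and 0 changed direction. Of 540 counts of calls in gene lists, 457 stayed within 1.5 times. Depth limits genes with a group at or below 3 counts, whose fitted interaction is no bound.

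With a fold threshold of 1.5 there were 926 calls, 342 positive and 584 negative, of which 652 were shared and less than additive, 0 shared and more than additive, 95 with a reduced and 2 with an enlarged cisplatin response, 92 with a reduced and 4 with an enlarged AU-15330 response, 70 opposed with cisplatin up, 8 opposed with cisplatin down and 3 with both drugs only. When averaged drug effects defined the classes, 1058 genes were shared and less than additive and 211 shared and more than additive, 306 had a reduced and 140 an enlarged cisplatin response, 320 an enlarged AU-15330 response, and 644 and 426 were opposed with cisplatin up and down, respectively. Without the filter on low counts, 20 genes had an enlarged cisplatin response.

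With the replicate block 5303 genes were called, 4336 of them among the 4361 called without it, and 49 had an enlarged cisplatin response, 254 were opposed with cisplatin down and 45 were shared and more than additive. The numbers were not taken to pair the libraries, since the correlation of deviations from group means between libraries of the same number ranged from −0.133 to 0.483 and passed 0.1 in 23 of 36 pairs, short of every pair. Its mean was 0.145, against −0.0269 between libraries of other numbers, and 10 of 24 libraries correlated best with a library of their own number.

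With replicates left out, the calls ranged from 3265 to 4627, genes shared and more than additive from 7 to 36, enlarged cisplatin responses from 11 to 33, enlarged AU-15330 responses from 89 to 153 and genes opposed with cisplatin down from 82 to 190. Leaving out only replicate 1 of DMSO, chosen after its values were seen, gave 4502 calls, 4025 of them among the 4361. DESeq2's Wald test gave 4769 calls, sharing 4258. The cause of these differences was not tested.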
